A study of Schizosaccharomyces pombe with 2 samples.

Results

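The deposited genome annotation of fission yeast, Schizosaccharomyces pombe, lists 1571 noncoding RNAs with an SPNCRNA identifier on chromosomes 1 to 3. Described here are the 802 of them (51.1%) whose span shares no base with the coding span of a gene, on either strand, a coding span being everything from start codon to stop codon with its introns. The other 769 overlap a coding span, 755 of them on the strand opposite to the gene. The series itself holds 2 H3K9me2 ChIP-seq libraries, replicates 1 and 2, both from swi6Δ cells (genotype Swi6D) grown overnight in YES, a rich medium. Its processed file used here carries positions only and no read count or enrichment of either library, so what follows describes where the RNAs lie and what their sequence holds, and no test between samples was made. The depth of the libraries is unknown, and swi6+ cells were not analysed here.

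Fission yeast heterochromatin forms over the centromeric dg and dh repeats, the subtelomeres, and the mating type region, where histone H3 is methylated at lysine 9 and bound by the HP1 protein Swi6. Transcripts from the repeats are processed into small RNAs by the RNA interference machinery, which guides the methyltransferase Clr4 back to the same DNA, so noncoding transcription is part of how this chromatin is built. Other noncoding RNAs of this yeast act as structural RNAs, as decoys for RNA-binding proteins in meiosis, or by being transcribed across the promoter of a neighbouring gene.

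Sequences are shown first for some named RNAs, with a motif tied to their described role marked. The presence of a motif does not by itself show a role. All are from the ASM294v3 genome, 30 bases long, 5′ to 3′ on the listed strand of the RNA. In ter1 (SPNCRNA.214), the RNA subunit of telomerase, capitals mark TGTAACC, which is complementary to the telomere repeat. In sme2 (SPNCRNA.103), the meiotic RNA that holds the RNA-binding proteins Mei2 and Mmi1, and in nam5 (SPNCRNA.230), nam6 (SPNCRNA.361), and nam1 (SPNCRNA.1459), capitals mark TNAAAC, the core of the element that Mmi1 binds, where N is any base. Each of these stretches is the densest in TNAAAC within its RNA.
ter1, chr1:3085777-3085806, minus strand: gtactgcttcgTGTAACCgtactcttcaac
sme2, chr2:339356-339385, minus strand: TGAAACaatatTAAAACgtattccTGAAAC
nam5, chr1:3753806-3753835, plus strand: ggactaataattTAAAACTAAAACTAAAAC
nam6, chr2:1609769-1609798, plus strand: ggactaataattTAAAACTAAAACTAAAAC
nam1, chr2:1743074-1743103, minus strand: gcgcaatgcattctttTGAAACttTTAAAC
The nam5 and nam6 stretches are the same letters in centromere 1 and centromere 2. Both RNAs carry a remark that the strand is unsettled, so their copies are read on a listed strand only. The shown parts of sme2, nam5, and nam6 hold 3 copies of TNAAAC each and that of nam1 holds 2. Of 323014 windows of 30 bases tiled over both strands of the gaps between coding spans, 375 (0.116%) held 2 copies or more and 5 (0.00155%) held 3 or more. Since the shown windows were picked as the densest of each RNA, these shares are given only as a scale. TGTAACC was present in ter1 once, from position 228 of the RNA, and in 31 of the 802 RNAs (3.87%) on the listed strand, 22 without and 9 with a remark that the strand is unsettled. It was present in 184 of 5036 windows of 1000 bases of the gaps (3.65%), both strands counted.

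The 802 RNAs were spread over the chromosomes in similar density, with 340 on chromosome 1 (6.09 per 100 kb), 306 on chromosome 2 (6.74 per 100 kb), and 156 on chromosome 3 (6.36 per 100 kb). Their source, as the references cited in each line show, was mostly the comparative fission yeast genome study of Rhind and colleagues (395 RNAs) or the transcriptome survey of Wilhelm and colleagues (297 RNAs). A set of 49 came from poly(A)-bearing cDNAs, the prl and meu RNAs, and 61 from elsewhere. Lines often cover the same ground. Of the 802, 380 overlapped another SPNCRNA line, 253 on the opposite strand and 183 on the same strand. Joining overlapping members of a strand left 726 loci, and joining both strands left 626, the largest of which held 5 members.

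The strand of many of these RNAs is not settled in the annotation. A remark saying the transcript could be on either strand stood on 271 of the 802 (33.8%), all from the survey of Wilhelm and colleagues, and on 3 of the 769 that overlap coding spans. Of the 271, 270 were listed on the plus strand and 1 on the minus strand. The other 531 were split between 259 on the plus and 272 on the minus strand. Lines of Rhind and colleagues covered 50% or more of 91 of the 271, lying only on the same strand for 33, only on the opposite strand for 43, and on both for 15. The plus strand of a noted RNA is therefore a listing, and counts that use strand are given below for the 531 RNAs without the note, called stranded from here on, and for the noted ones.

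RNAs outside coding spans were shorter than those across them. Their length had a median of 697.5 bases, with quartiles of 429 and 1101 bases, against a median of 1413 bases for the 769 others. Stranded members had a median of 783 bases and noted members 565 bases. By source the median of the members was 934 bases for Rhind and colleagues, 562 bases for Wilhelm and colleagues, and 425 bases for the poly(A)-bearing cDNAs. The mix of sources differed, with lines of Rhind and colleagues making up 395 of the 802 and 702 of the 769. Among the 702 the median was 1460.5 bases. An RNA that must fit between coding spans has less room, so the shorter length is in part set by the rule that chose the members.

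**Figure D1:**
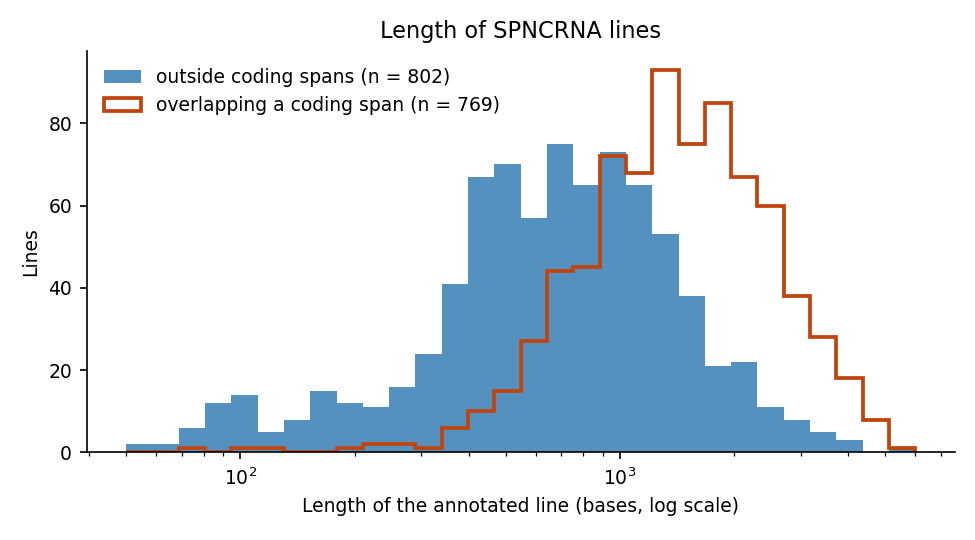
Number of SPNCRNA lines (vertical axis) by length in bases (horizontal axis, log scale) for the 802 RNAs outside coding spans (filled) and the 769 that overlap a coding span (outline). The filled distribution lies to the left, with medians of 697.5 and 1413 bases.

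The longest was SPNCRNA.1164 on chromosome 3 (966133 to 971255, plus strand), with 5123 bases. SPNCRNA.671 (4025 bases), SPNCRNA.866 (3973 bases), and SPNCRNA.1652 (3776 bases) came next. SPNCRNA.1652 is the longer line for rse1, which lies upstream of ste11, the gene of the transcription factor that starts mating and meiosis. An older line for the same RNA, SPNCRNA.111, covers 2113 bases within it. The 10 longest all came from Rhind and colleagues. In 2 places, both strands of a gap gave such an RNA, SPNCRNA.671 with SPNCRNA.672 (3403 bases) and SPNCRNA.866 with SPNCRNA.867 (3271 bases). At the other end, SPNCRNA.116 and SPNCRNA.118 had 56 bases each, SPNCRNA.386 had 65, SPNCRNA.198 had 66, and SPNCRNA.83 had 71. A length above 200 bases, the usual lower limit for a long noncoding RNA, was reached by 732 of the 802.

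The rule is a sharp one at its edge. SPNCRNA.1551 abutted the coding span of tfb5, which encodes a subunit of the transcription factor TFIIH, with 0 bases between. SPNCRNA.1359 ended 2 bases from eca39 and SPNCRNA.630 lay 4 bases from SPAC1639.01c. Just outside, SPNCRNA.860 shared 4 bases with the coding span of cao1, SPNCRNA.1207 shared 12 with SPCC162.01c, and SPNCRNA.1239 shared 17 with ssp1. The median member lay 383 bases from the nearest coding span.

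Being outside coding spans did not mean being outside messenger RNAs. Untranslated regions (UTRs), the parts of a messenger RNA before the start codon and after the stop codon, were overlapped by 356 members (44.4%), against 681 of the 769 others (88.6%). UTRs adjoin the coding spans that the others cross, so this difference is in part set by the rule that chose the members. The share of gap bases that lie in UTRs is not given here. A share of 50% or more of the RNA lay in UTRs for 149 members, and 77 lay wholly within a UTR line. Among the 531 stranded members, 276 overlapped a UTR (52.0%), and among the 271 noted members 80 did (29.5%). The noted members all came from Wilhelm and colleagues, so this split follows source as well as the note on strand. By source, a UTR was overlapped by 219 of 395 lines of Rhind and colleagues (55.4%) and 88 of 297 of Wilhelm and colleagues (29.6%). The counts were 25 of 49 for the poly(A)-bearing cDNAs (51.0%) and 24 of 61 for other sources (39.3%). UTRs at the 5′ side were met more often than those at the 3′ side, by 201 and 98 of the stranded members. The place of the members bears on this. Of 528 stranded members with a coding span on both sides, 278 lay between the starts of both flanking genes and 33 between the ends of both. Whether 5′ UTRs were met more often than these places alone would give was not tested. Split by strand, 119 stranded members overlapped a 5′ UTR on the opposite strand and 104 overlapped a 5′ UTR on their own strand, while 72 overlapped an opposite 3′ UTR and 27 a 3′ UTR of their own strand. For the noted members the same counts on the listed strands were 37, 38, 5, and 9.

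The annotation itself flags some of these as possible parts of a messenger RNA. Some remark that mentions a UTR stood on 117 members, and in 104 members the product was named a possible alternative UTR. Of the 109 stranded members with such a remark, 98 (89.9%) overlapped a UTR line on their own strand. Of the 422 stranded members without the remark, 30 (7.11%) did. Among the noted members, 1 of 8 with the remark and 45 of 263 without it (17.1%) overlapped a UTR line on the listed strand. For these RNAs, separate transcripts and longer forms of a neighbouring messenger RNA cannot be told apart from positions. The members that overlapped the most UTR lines, 3 each, were SPNCRNA.1008, SPNCRNA.1521, and SPNCRNA.1596. SPNCRNA.1521 lay between pim1 and ppk29, a divergent gene pair.

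The members lay in divergent gaps more often than the share of such gaps in the genome. Divergent gaps, where the 2 flanking genes are transcribed away from each other, held 420 of the 799 members that have a coding span on both sides (52.6%). They are 1404 of the 5120 gaps of the 3 chromosomes (27.4%) and hold 36.4% of the gap bases. Tandem gaps, between genes on the same strand, held 335 members (41.9%) and 48.9% of the bases. Convergent gaps, between genes that run towards each other, held 44 members (5.51%) and 14.7% of the bases. Per 100 kb of gap this came to 23.5 members in divergent, 13.9 in tandem, and 6.07 in convergent gaps. The note on strand does not bear on the class of a gap, and 278 of 528 stranded members (52.7%) and 142 of 271 noted members (52.4%) were in divergent ones.

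The classes also differed in length. The median gap had 1017 bases in the divergent class, 743 in the tandem class, and 387 in the convergent class. Gaps that held a member had a median of 1921 bases and those that held none 618 bases. Within a length class the order was the same in the classes from 500 to 3999 bases, though at 500 to 999 bases the shares of 2.98% in divergent and 2.87% in tandem gaps hardly differed. Of gaps of 1000 to 1999 bases, a member lay in 126 of 487 divergent (25.9%), 93 of 572 tandem (16.3%), and 13 of 107 convergent gaps (12.1%). Of gaps of 2000 to 3999 bases, it lay in 110 of 197 (55.8%), 69 of 144 (47.9%), and 13 of 32 (40.6%). Above that, 32 of 35 divergent gaps and 29 of 38 tandem gaps were occupied, with too few convergent ones, 2, to place them. Below 500 bases, 1 of 1763 gaps of any class held a member.

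**Figure D2:**
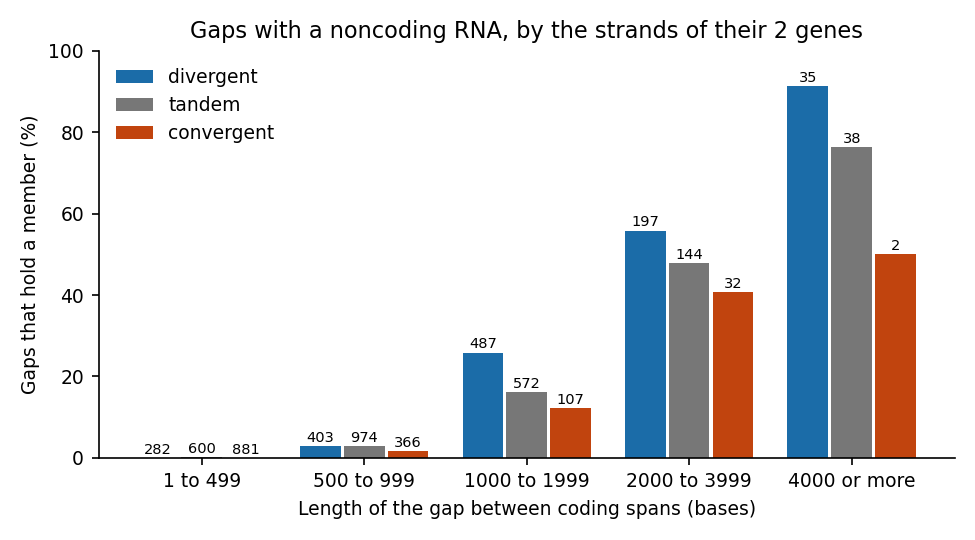
Share of gaps between coding spans that hold at least 1 member (vertical axis, percent) by gap length in bases (horizontal axis), for divergent, tandem, and convergent gaps. The number above each bar is the number of gaps. Longer gaps are more often occupied, and from 500 to 3999 bases divergent gaps are occupied most often, for example 25.9% against 16.3% and 12.1% at 1000 to 1999 bases.

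Most members had a head-to-head neighbour upstream, meaning that the next gene before the start of the RNA runs the other way, at whatever distance. This held for 419 of the 531 stranded members (78.9%) and 189 of the 271 noted ones (69.7%). In a divergent gap either strand gives a head-to-head neighbour and in a convergent gap neither does, so only tandem gaps leave a choice. There, 141 of 217 stranded members (65.0%) ran against both flanking genes, while 47 of 118 noted members (39.8%) did. The listed strand of the noted RNAs is plus for 270 of 271, so their share follows the strand of the genes around them.

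The distance between the starts of these pairs varied widely. Measured from the start of the RNA to the start of the neighbouring transcript, with its 5′ UTR, the median distance was 145 bases for the stranded members and 292 for the noted ones. Starts were 0 to 500 bases apart for 179 of the 419 stranded members (42.7%) and overlapped, with the transcripts running through each other, for 115. The same counts were 86 and 33 for the noted members. The closest starts belonged to SPNCRNA.486 and nro1, a regulator of the oxygen response, 2 bases apart. SPNCRNA.1369 and swd3, which encodes a subunit of the H3K4 methyltransferase complex, were 4 bases apart, as were SPNCRNA.1187 with SPCC338.18 and SPNCRNA.1336 with SPBC1773.06c. SPNCRNA.1431 and SPBC27B12.12c were 5 bases apart.

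**Figure D3:**
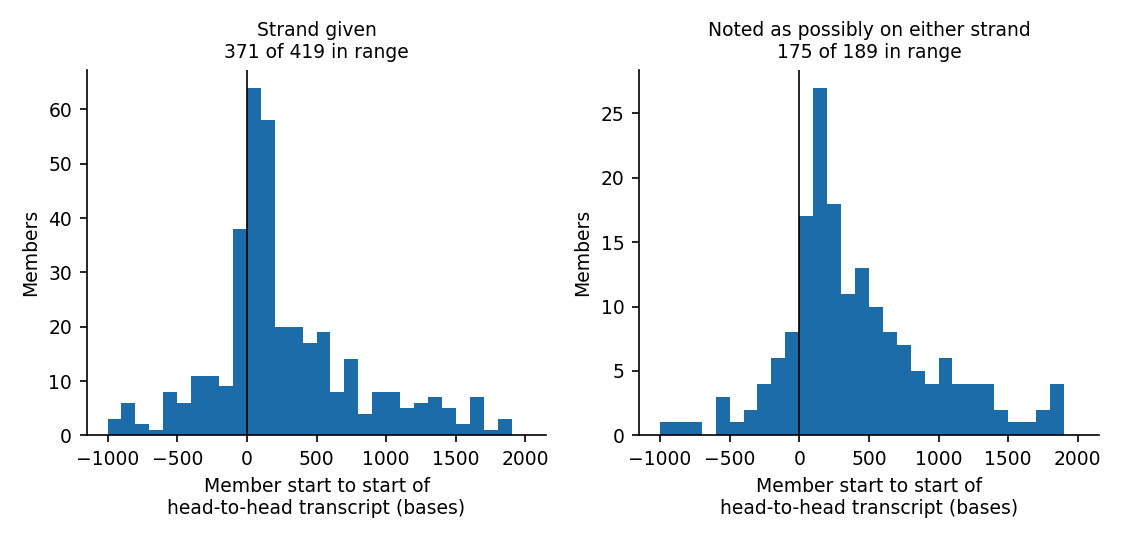
Number of members (vertical axis) by the distance in bases from the member's start to the start of its head-to-head neighbour (horizontal axis, negative where the transcripts overlap), for stranded members (left) and members noted as possibly on either strand (right). The stranded members pile up just right of 0, and both groups thin out with distance, with medians of 145 and 292 bases.

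Few members touched the annotated repeats, and those that did were mostly centromeric. Of the 802, 41 (5.11%) overlapped a repeat_region line, 29 of them lying wholly inside such lines, and 74 (9.23%) lay within 5 kb of it. For scale, 4.22% of all gap bases are in repeat_region lines and 8.31% are within 5 kb. Of the 769 RNAs across coding spans, 1 overlapped a repeat and 17 (2.21%) lay within 5 kb. Of the 254335 bases in repeat_region lines, 207635 lie in gaps, so these low counts are in part set by the rule that chose the RNAs. The note on strand stood on 31 of the 41 overlapping members.

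The repeat spans of the 3 centromeres were overlapped by 26 members, 7 in centromere 1, 15 in centromere 2, and 4 in centromere 3. All 26 were listed on the plus strand and all 26 carried the remark on either strand, so no centromeric RNA among the members has a settled strand. In density this was 19.6, 36.5, and 6.05 members per 100 kb of repeat span. In centromere 1, nam5 (1082 bases) overlapped a dh repeat, SPNCRNA.231 (1092 bases) lay on a dg repeat, and SPNCRNA.234 (1032 bases) on a dh repeat. SPNCRNA.232 (1105 bases) lay across the border of dg and the innermost repeat imr1L, SPNCRNA.333 and SPNCRNA.396 on the innermost repeat imr1R, and SPNCRNA.233 (492 bases) on the central core cnt1. In centromere 2 the dg and dh repeats held the longest of them, SPNCRNA.360 with 2695 bases. The innermost repeat imr2r held SPNCRNA.366, SPNCRNA.367, and SPNCRNA.368, and the central core cnt2 held SPNCRNA.370 (478 bases). Centromere 3 held only SPNCRNA.482 to SPNCRNA.485, around its central region, although its span of 66100 bases is the longest.

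**Figure D4:**
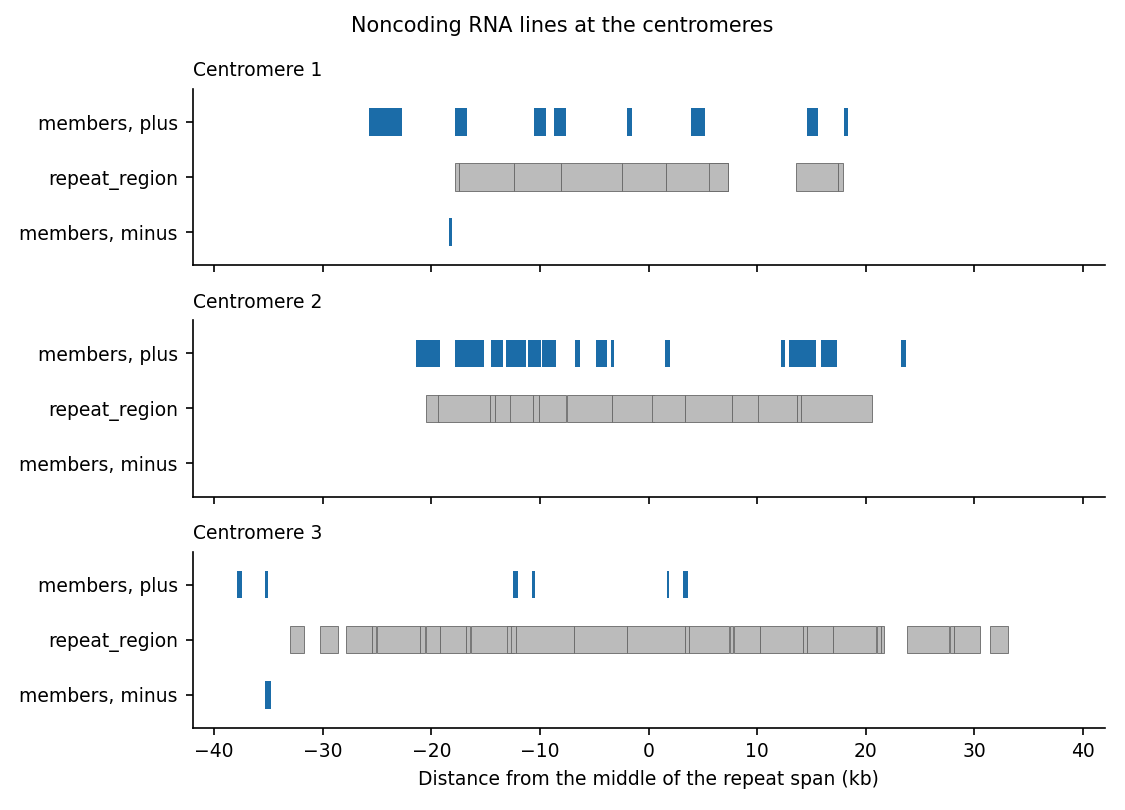
Members (blue) on the plus strand (upper row) and minus strand (lower row) and repeat_region lines (grey, middle row) at the 3 centromeres, by distance in kb from the middle of the repeat span (horizontal axis). All 26 members that overlap the spans are on the upper row, and the minus-strand line just left of centromere 1 is SPNCRNA.84.

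Centromere 1 is bordered by a member at each side. SPNCRNA.84 (330 bases, minus strand) began 197 bases left of the repeats and SPNCRNA.95 (364 bases, plus strand) began 163 bases right of them. RefSeq names them IRC1-L and IRC1-R, after the inverted repeats that bound heterochromatin there, and SPNCRNA.95 lies between the repeats and emc5. Both are listed away from the centromere and neither carries the note on strand, though SPNCRNA.95 is marked as possibly spurious. All 281 of the 50-base sequences of SPNCRNA.84 also occurred in SPNCRNA.95, on the listed strands. A stretch that both hold shows the match across the centromere.
SPNCRNA.84, chr1:3753460-3753489, minus strand: gtacaatcaggcaacacatttatttagcca
SPNCRNA.95, chr1:3789619-3789648, plus strand: gtacaatcaggcaacacatttatttagcca
The other centromeres had no such neighbour at both sides. At centromere 2 the nearest members outside were SPNCRNA.358, 30110 bases to the left, and SPNCRNA.374, 2730 bases to the right, and at centromere 3 they were SPNCRNA.1172 at 1761 bases and SPNCRNA.1175 at 19611 bases.

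Repeated sequence makes some of these RNAs hard to measure by short reads. In 46 members (5.74%) over 50% of the 50-base sequences had a further copy in the genome, and in 22 all of them did. Counted by position, 5.2% of the 50-base sequences in members were repeated, against 6.1% of those in all gaps. Of the 46, 32 overlapped a repeat_region line and 24 lay in the centromere spans. The 2 centromeric members without repeated sequence, SPNCRNA.369 and SPNCRNA.370, overlapped cnt2, the core of centromere 2. No 50-base repeat was found in 743 members (92.6%). A short read from a repeated RNA cannot be given to a single copy.

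Members that share 50-base sequence with a member elsewhere numbered 32, in 7 families. The largest, with 8 members, joined centromeres 1 and 2 with SPNCRNA.84 and SPNCRNA.95. Within it nam5 and nam6 shared 878 of 1033 and 1039 such sequences on their listed strands. SPNCRNA.372, on the other arm of centromere 2, shared 960 with nam6, but none on the listed strands. The arms hold the sequence in opposite orientation, and both lines are listed on plus. The same held for SPNCRNA.482 and SPNCRNA.485 in centromere 3, with 443 shared sequences of which 0 were on the listed strands. A family of 7 joined members of all 3 centromeres.

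The mating type region gave a comparable pair. SPNCRNA.389 (787 bases) and SPNCRNA.390 (1550 bases) lie on chromosome 2 at either side of the gene listed as matmc_1, and all 738 of the 50-base sequences of SPNCRNA.389 occurred in SPNCRNA.390 on the opposite strand. Both are listed on plus and both carry the note. SPNCRNA.391, with 83 bases, lay at the edge of the same right-hand repeat. SPNCRNA.389 itself lay 406 bases outside a repeat_region line.

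Within 100 kb of a chromosome end lay 61 members (7.61%), on 4.77% of the bases of the 3 chromosomes. This was 10.2 members per 100 kb, against 6.38 per 100 kb over the chromosomes as a whole. Both densities are per base of chromosome, not per base of gap, and count overlapping lines separately. The first member lay 11026 bases from the left end of chromosome 1 (SPNCRNA.70) and 21024 bases from that of chromosome 2 (SPNCRNA.287). At the right ends these distances were 35695 bases (SPNCRNA.310) and 38553 bases (SPNCRNA.448). On chromosome 3 the outermost were SPNCRNA.1094, 23657 bases from the left end, and SPNCRNA.1299, 3377 bases from the right end. A family of 4 linked the left ends of chromosomes 1 and 2. SPNCRNA.136 and SPNCRNA.601 are listed on opposite strands of the former, and SPNCRNA.287 and SPNCRNA.1300 on opposite strands of the latter. SPNCRNA.287 carries the note on strand, and RefSeq lists it on the other strand. SPNCRNA.136 shared 578 sequences with SPNCRNA.287.

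A family of 4 on chromosome 3 consisted of meiotic RNAs. The meu genes were found as transcripts raised in meiosis. Meu3 (SPNCRNA.07, 744 bases) lies 41984 bases from the left end, and meu19 (SPNCRNA.29, 749 bases) lies near the right end, with SPNCRNA.1098 and SPNCRNA.1295 as later lines for the same RNAs. Meu3 and meu19 shared 429 of 695 and 700 50-base sequences on their listed strands. A stretch that begins at base 4 of meu3 and base 1 of meu19 was the same in both. Each also held AATAAA, a signal for 3′ end formation, in its last 30 bases, here in capitals.
meu3 shared stretch, chr3:42696-42725, minus strand: ttttcaggattttagcttgaaaaatgggaa
meu19 shared stretch, chr3:2419051-2419080, plus strand: ttttcaggattttagcttgaaaaatgggaa
meu3 end, chr3:41985-42014, minus strand: AATAAAatttgtgaaattttcaaataagca
meu19 end, chr3:2419770-2419799, plus strand: ccAATAAAatttgtgaatttccataaaaaa

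Across the members, AATAAA stood in the last 50 bases of 91 of the 531 stranded RNAs (17.1%) and in 27 of the 271 noted ones (9.96%). The same search at the other end of the stranded RNAs, read on the other strand, found it in 40 (7.53%), and for the noted RNAs in 32 (11.8%). Of windows of 50 bases tiled over both strands of the gaps, 9.16% held it, and of the last 50 bases of 4655 3′ UTR lines, 17.1%. The share in stranded members as a whole was close to that of annotated 3′ UTR ends, and that in noted members was close to the gap windows. Sources differed too, and the noted members all came from Wilhelm and colleagues. By source, AATAAA was most frequent in the poly(A)-bearing cDNAs, 11 of 49 (22.4%), then in lines of Rhind and colleagues, 71 of 395 (18.0%). It stood in 30 of 297 lines of Wilhelm and colleagues (10.1%) and in 6 of 61 from other sources (9.84%), both near the gap windows.

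TNAAAC was not more frequent in the members as a whole than around them. They held 1474 copies on the listed strand (2.15 per kb), and the gaps held 2.38 per kb over both strands. The stranded members had 2.07 per kb on their own strand and 2.21 per kb on the other, and the noted members 2.37 and 2.38. A few members stood far above this. Sme2 held 8 copies in 667 bases (11.99 per kb) and 1 on the other strand, and 7 of the 8 lay within its last 100 bases, at positions 568 to 666. SPNCRNA.452 came next among RNAs of 500 bases or more, with 9.16 per kb. Nam5 and nam6 held 9 copies each (8.32 and 8.27 per kb) and 1 each on the other strand. SPNCRNA.405 followed with 8.21 per kb, and of these 5 only sme2 was without the note on strand. By number alone the order was another, with 12 copies in SPNCRNA.1116 (2697 bases) and 11 each in SPNCRNA.1164, SPNCRNA.1366, and SPNCRNA.1606, which are long. SPNCRNA.1164 held 17 on its other strand.

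**Figure D5:**
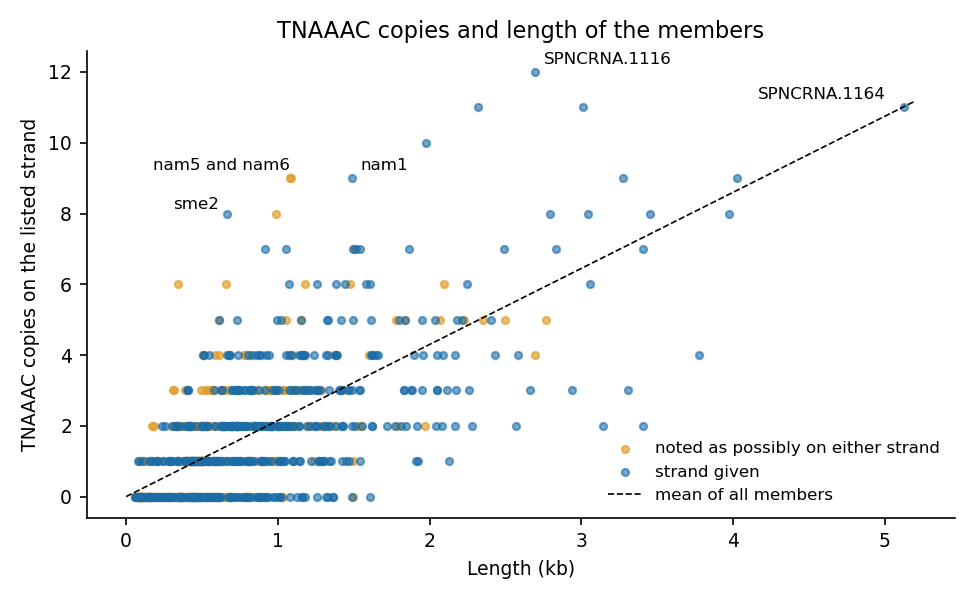
Copies of TNAAAC on the listed strand (vertical axis) against length in kb (horizontal axis) for the 802 members, stranded (blue) and noted as possibly on either strand (orange). The dashed line is the mean of 2.15 copies per kb, and sme2, nam5, and nam6 lie well above it while SPNCRNA.1164 lies near it.

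The deposited line for sme2 is not the whole gene as it is known now. It covers 339346 to 340012 on the minus strand of chromosome 2, while RefSeq gives 339346 to 340907, so the copies counted belong to the 3′ part of the long form. Of the other RNAs with a known role, mrp1 (SPNCRNA.82, 399 bases), the RNA of the RNase MRP particle that processes ribosomal RNA, had a GC content of 42.4%, and srp7 (SPNCRNA.98, 499 bases), the 7SL RNA of the signal recognition particle, 39.3%. Ter1 (1413 bases) had 34.2%. The median member had 32.9%. Over all bases, members had 33.9%, the gaps 31.4%, and coding exons 39.6%. In place, mrp1 and ter1 lay in divergent gaps and srp7 in a convergent gap. Omt3 (SPNCRNA.130, 1001 bases) lay between mei2, the RNA-binding regulator of meiosis, and omt2, in a divergent gap.

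Open reading frames were short. On the listed strand the longest frame from ATG to a stop had a median of 40 codons in stranded and 32 in noted members, and 2 members, both stranded, reached 100 codons. These were SPNCRNA.863 with 163 and SPNCRNA.679 with 103. SPNCRNA.863 overlaps a long terminal repeat of a retrotransposon, as do 25 members in all. On the other strand 9 members reached 100 codons. Among RNAs across coding spans 70 of 769 reached 100 codons on their own strand and 414 on the other. Those RNAs are longer, with a median of 1413 bases against 697.5, and lie over coding frames, so the counts are not like for like.

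Later annotation kept most of the members. RefSeq holds 686 under the same identifier (85.5%), 666 of them with the same span, and 24 as older names of another gene, while 92 had no match. The unmatched share was 34.4% for the 61 lines from other sources, 15.8% for Wilhelm and colleagues, 6.12% for the poly(A)-bearing cDNAs, and 5.32% for Rhind and colleagues. RefSeq lists 663 as long noncoding RNAs and 37 under the plain label of noncoding RNA. It lists 9 as small nucleolar RNAs or their primary transcripts, and 1, SPNCRNA.46 (prl46), as protein coding. The nucleolar ones, which guide the modification or cleavage of ribosomal RNA, include SPNCRNA.906, now snR30, and SPNCRNA.1038, now snR90. In 4 of the 686 the strand was changed, SPNCRNA.87, SPNCRNA.287, SPNCRNA.291, and SPNCRNA.316, the last 3 of which carried the note. None of the 26 centromeric members was changed in strand.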

How the data were processed

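The 2 ChIP-seq libraries of swi6Δ cells have no count, signal or other value in the file used here. The deposited values are positions (where a feature starts and ends, numbered from base 1, a unit listed as other) that the authors took from GeneDB, and their score column is empty. Aligner and build of the ChIP-seq reads are not given in the sources used here, and 0 columns of other series were found. Chromosome lengths equalled those of ASM294v3, on which 5093 of 5098 coding genes with exon lines had a whole reading frame. Members were misc_RNA lines with an SPNCRNA identifier and 0 bases shared with a CDS_parts line, which spans introns. Members and lists were chosen with earlier results of these data known. Named RNAs are the 10 longest and 5 shortest, those overlapping or nearest to repeats, those with names, the 5 richest in TNAAAC by number and by density, those beside centromeres, chromosome ends, emc5, rad50 and the mating type locus, those with most UTR lines, the 3 at each side of the rule's edge, and the 5 closest divergent starts. Others are named as partners of these, or were chosen after their values were seen. Centromere spans joined repeat_region lines up to 10 kb apart around the central cores. Motifs were searched on both strands and copies of TNAAAC may overlap. Sequences were read from the RefSeq genome. Searches and overlaps were tested on simulated data. Alternatives changed strand, distance, window and motif settings. Python 3.11.15, numpy 2.4.6, pandas 2.3.3 and matplotlib 3.10.9 were used.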

Additional observations from a re-analysis of the deposited data

How the results depend on the processing

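The count of 802 RNAs became 1547 when only coding spans of the same strand excluded a line, 804 with coding exons in place of whole spans, and 531 without the RNAs noted as possibly on either strand, an alternative chosen, like the joining of loci, after seeing the data. UTR overlap fell from 356 to 149 when 50% of the RNA had to lie in UTRs, to 174 for UTRs of the same strand and to 215 for those of the opposite strand. Head-to-head starts within 500 bases rose from 265 to 413 when overlapping transcripts were included, a setting also added later. RNAs in divergent gaps fell from 420 to 278 without the noted RNAs, and AATAAA rose from 118 to 189 RNAs over the last 100 bases. TNAAAC fell from 1474 copies to 425 as TTAAAC. RNAs with a frame of 100 codons rose from 2 to 63 when a frame was read from stop to stop. The other alternatives moved each value by at most 1.5 times. No paired analysis was possible because the file gives no value per library. Positions carry no read depth, so no value here says whether an RNA was transcribed or methylated in swi6Δ cells.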
